A study of Mus musculus with 10 samples.

Results

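The interferon-stimulated genes Ifit1, Ifit3, Isg15, Irf7, Oas1a, Oasl2, Rsad2, Usp18 and Mx1 were chosen by name, and every probe that carries one of these names on the mouse array was taken. This gave 11 probes of 9 genes, with 2 probes for Isg15 and for Oas1a, out of 55681 probes other than control probes. The RNA came from epididymal white adipose tissue (WAT) of 10 adult male C57BL/6JOlaHsd mice, whose strain the labels also give as C57BL/6J. All 10 belonged to 1 group. From an age of 9 weeks, the mice were fed a purified low fat diet for 3 weeks and a high-fat diet for 12 weeks at 29°C, and then received Desferrioxamine (DFO), an iron chelator, at 100 mg/kg body weight daily for 5 days, before they were killed after 2 h without food. Mice that did not receive DFO are not analysed here, so no value below is an effect of the treatment. RNA of each mouse carried the dye Cy5 and was hybridised against a Cy3-labelled pool of all samples of the wider study, control mice included, without a dye swap. Values are given as log2 ratios of the mouse over this pool. Because the dyes were not swapped, a difference of a mean ratio from 0 was not tested, and the comparison made here is between mice.

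Type I interferons are secreted when a cell detects foreign or misplaced nucleic acid. Type I interferons bind the receptor pair Ifnar1 and Ifnar2, whose kinases Jak1 and Tyk2 set off a complex that holds Stat2 and Irf9 and binds the interferon-stimulated response element (ISRE) before the target genes. Interferon gamma has a receptor of its own, Ifngr1 with Ifngr2, and acts through the gamma-activated site (GAS). In adipose tissue, macrophages, plasmacytoid dendritic cells and adipocytes are all known to respond to interferon.

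The promoters of these genes were searched for the element through which type I interferons act, and those with a match are shown. RefSeq promoter sequence, from 250 bases before to 50 bases after the gene start, was at hand for 7 of the 9 genes, with Usp18 and Mx1 not among them. The ISRE core (GAAA, any 2 bases and GAAA again), searched on both strands, occurred in 5 of these 7, namely Isg15, Ifit1, Ifit3, Oas1a and Rsad2, against 3.44% of all 32851 promoter windows of 300 bases. It was not found in the windows of Irf7 and Oasl2. The GAS letters TTCNNNGAA occurred in the window of 1 member, Oas1a, against 8.3% of all windows. The upstream bases of Isg15, Ifit1 and Rsad2 and the 30 bases around the matches nearest to the start of Ifit3 and Oas1a are printed 5′ to 3′ on the strand of the gene, with the ISRE core in capitals.
Isg15 (GRCm38.p6, chr4:156200819-156201068, minus strand): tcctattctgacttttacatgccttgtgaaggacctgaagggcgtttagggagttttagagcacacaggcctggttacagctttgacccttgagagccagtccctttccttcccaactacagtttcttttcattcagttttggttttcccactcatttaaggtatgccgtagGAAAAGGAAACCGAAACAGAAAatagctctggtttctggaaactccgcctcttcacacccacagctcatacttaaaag
Ifit1 (GRCm38.p6, chr19:34640639-34640888, plus strand): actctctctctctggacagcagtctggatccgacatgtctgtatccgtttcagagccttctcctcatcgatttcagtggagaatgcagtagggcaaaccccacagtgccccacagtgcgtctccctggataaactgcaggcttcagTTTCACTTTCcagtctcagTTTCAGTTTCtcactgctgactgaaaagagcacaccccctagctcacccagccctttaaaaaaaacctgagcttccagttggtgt
Rsad2 (GRCm38.p6, chr12:26456453-26456702, minus strand): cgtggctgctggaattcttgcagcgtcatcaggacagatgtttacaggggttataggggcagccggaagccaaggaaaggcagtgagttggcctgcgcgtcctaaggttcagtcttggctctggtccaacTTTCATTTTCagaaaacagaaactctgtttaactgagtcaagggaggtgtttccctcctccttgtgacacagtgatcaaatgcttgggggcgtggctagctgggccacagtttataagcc
Ifit3 (GRCm38.p6, chr19:34583397-34583426, plus strand): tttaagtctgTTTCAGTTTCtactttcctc
Oas1a (GRCm38.p6, chr5:120907523-120907552, minus strand): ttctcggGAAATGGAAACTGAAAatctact
In Isg15 3 matches overlap in 1 run, and in Oas1a 2 overlap, while the 2 of Ifit1 are apart and read on the other strand. A match describes the letters only.

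Before the values are compared, the mice themselves have to be described. The first component of the log2 ratios over 27737 expressed probes held 75.1% of the variance and set mice 4, 5, 6 and 7 apart from the other 6, with scores of 0.281 to 0.448 against -0.366 to -0.137. Expressed probes are those that the scanner software called well above background in Cy5 on 5 or more arrays. Adipocyte markers, among them Adipoq, Fabp4 and Cidec, had a mean log2 ratio of -2.44 to -1.36 in mice 4 to 7 and of -0.14 to 0.64 in the others. Macrophage markers, led in signal by Lyz2, Cd68 and Csf1r, had a mean of 0.41 to 0.72 in mice 4 to 7 and of -0.49 to 0.04 in the others. Cfd, the adipocyte gene that encodes complement factor D, ranged from -4.69 to -3.36 in mice 4 to 7 and from -0.70 to 1.45 in the other 6. In a bulk tissue, fewer cells of a type and less RNA per cell cannot be told apart. The log2 ratios of 2 arrays correlated over probes between -0.33 and 0.88. The arrays had no saturated spots, and 46.1% to 56.0% of spots were well above background in Cy5. The number of arrays limits the precision. The spread and the correlations with Irf7 are therefore given with and without mice 4 to 7.

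All 11 member probes were called well above background in Cy5 and in Cy3 on every array, so none was lost to the filter. Irf7, the transcription factor that amplifies the interferon response, was measured by a probe at chr7:148450664-148451014 (mm9, minus strand). Its log2 ratio ranged from -0.36 in mouse 9 over a median of -0.06 to 0.62 in mouse 1, a 1.98-fold range. Mice 1, 2, 3 and 8 lay above 0, and mice 4 to 7, 9 and 10 below. The mean was 0.03 ± 0.34 (SD, n = 10).

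Isg15, a ubiquitin-like protein that is coupled to other proteins, varied over a 3.01-fold range. Its brighter probe, at chr4:155573649-155573708 (mm9, minus strand), ranged from -0.98 in mouse 4 over a median of -0.14 to 0.61 in mouse 3. The dimmer probe, at chr4:155573533-155573552 as annotated, ranged from -0.51 in mouse 4 to 0.54 in mouse 1, and the 2 probes correlated with r = 0.92 over the 10 mice. On both probes mice 4 to 7 were the 4 lowest. Usp18, the protease that removes Isg15 from proteins and dampens the type I receptor, was measured at chr6:121220874-121220933 (mm9, plus strand). It ranged from -0.77 in mouse 7 over a median of -0.24 to 0.49 in mouse 2, again with mice 4 to 7 lowest. The difference between mice 6 and 9, the closest pair across that border, was small, at -0.36 and -0.32.

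Ifit1 and Ifit3 encode proteins that bind viral RNA and hinder its translation. Ifit1, at chr19:34723796-34723855 (mm9, plus strand), ranged from -0.69 in mouse 5 over a median of -0.34 to 0.26 in mouse 2. Ifit3, at chr19:34663105-34663164 (mm9, plus strand), ranged from -0.84 in mouse 5 over a median of 0.09 to 0.47 in mouse 1. Mice 4 to 7 were the 4 lowest for both genes. For Ifit3 they lay between -0.84 and -0.39 and the other 6 between -0.05 and 0.47. For Ifit1 the border was narrow, with mouse 4 at -0.38 and mouse 10 at -0.36. In all, mice 4 to 7 were the 4 lowest for 4 of the 9 genes (Isg15, Usp18, Ifit1 and Ifit3), against 23.0% of 20179 expressed genes, each taken by its brightest probe. They were the 4 highest for 0 of the 9, against 18.4%.

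The antiviral genes Oasl2 and Mx1 did not show this border. Oasl2, an oligoadenylate synthetase-like protein measured at chr5:115362168-115362227 (mm9, plus strand), ranged from -0.22 in mouse 9 over a median of 0.27 to 1.00 in mouse 2. Mice 4 to 7 lay close together between 0.14 and 0.27, above mouse 9. Mx1, the gene of a GTPase that blocks viruses and that the RefSeq table lists as a transcribed pseudogene in the reference strain, was measured at chr16:97668644-97668703 (mm9, minus strand). It had the smallest range of the 9 genes in these values, from -0.34 in mouse 5 over a median of -0.10 to 0.34 in mouse 3. Mouse 6 was at 0.09, above mice 8, 9 and 10. The probe was dim, with a raw Cy5 signal of 113 to 209, and its rank depended on the processing. With the ratio of the scanner software, the SD of Mx1 between mice was 0.39. That was above those of Ifit1 (0.38), Oasl2 (0.33) and Rsad2 (0.31).

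Oas1a, which makes the oligoadenylates that activate RNase L, had the widest range, 3.29-fold on its brighter probe at chr5:121346735-121346794 (mm9, minus strand). The values ran from -1.20 in mouse 9 over a median of 0.25 to 0.52 in mouse 2. Mouse 10 was next lowest at -0.70, and mice 4 to 7 lay between 0.37 and 0.44. The dimmer probe, at chr5:121348338-121348397, ranged from -0.71 in mouse 9 to 0.77 in mouse 5 and correlated with the brighter with r = 0.94. Oas1a has close paralogs in the same cluster, and RNA of a paralog that binds these probes cannot be told apart from its own. Other genes of the Oas family were looked up after the values of Oas1a were seen. Over the 10 mice Oas1f had r = 0.98, Oasl1 0.94 and Oas1d 0.70 with Oas1a. Oas2 had -0.15, Oas1e -0.37, Oas1c -0.46 and Oas1b -0.69. Without mice 4 to 7 r was 0.98 for Oas1f, 0.92 for Oasl1, 0.47 for Oas1d and 0.87 for Oas2. It was -0.33 for Oas1e, 0.22 for Oas1c and -0.46 for Oas1b. Oas1g, Oas1h and Oas3 were well above background on 0, 0 and 2 arrays. Oas1f and Oasl1 were also lowest in mouse 9, at -1.16 and -1.33.

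Rsad2, which encodes viperin, a radical SAM enzyme that makes a chain-terminating nucleotide, was measured at chr12:27127859-27127918 (mm9, minus strand). It ranged from -0.44 in mouse 1, where Irf7 was highest, over a median of -0.01 to 0.55 in mouse 8. Mice 4 to 7 lay between -0.06 and 0.09, within the range of the other 6. Cmpk2, its neighbour on the chromosome and a nucleotide kinase, was likewise looked up afterwards. The r of Cmpk2 with Rsad2 was 0.39 over the 10 mice and 0.98 without mice 4 to 7, in which Cmpk2 was at -0.53 to -0.36.

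**Figure D1:**
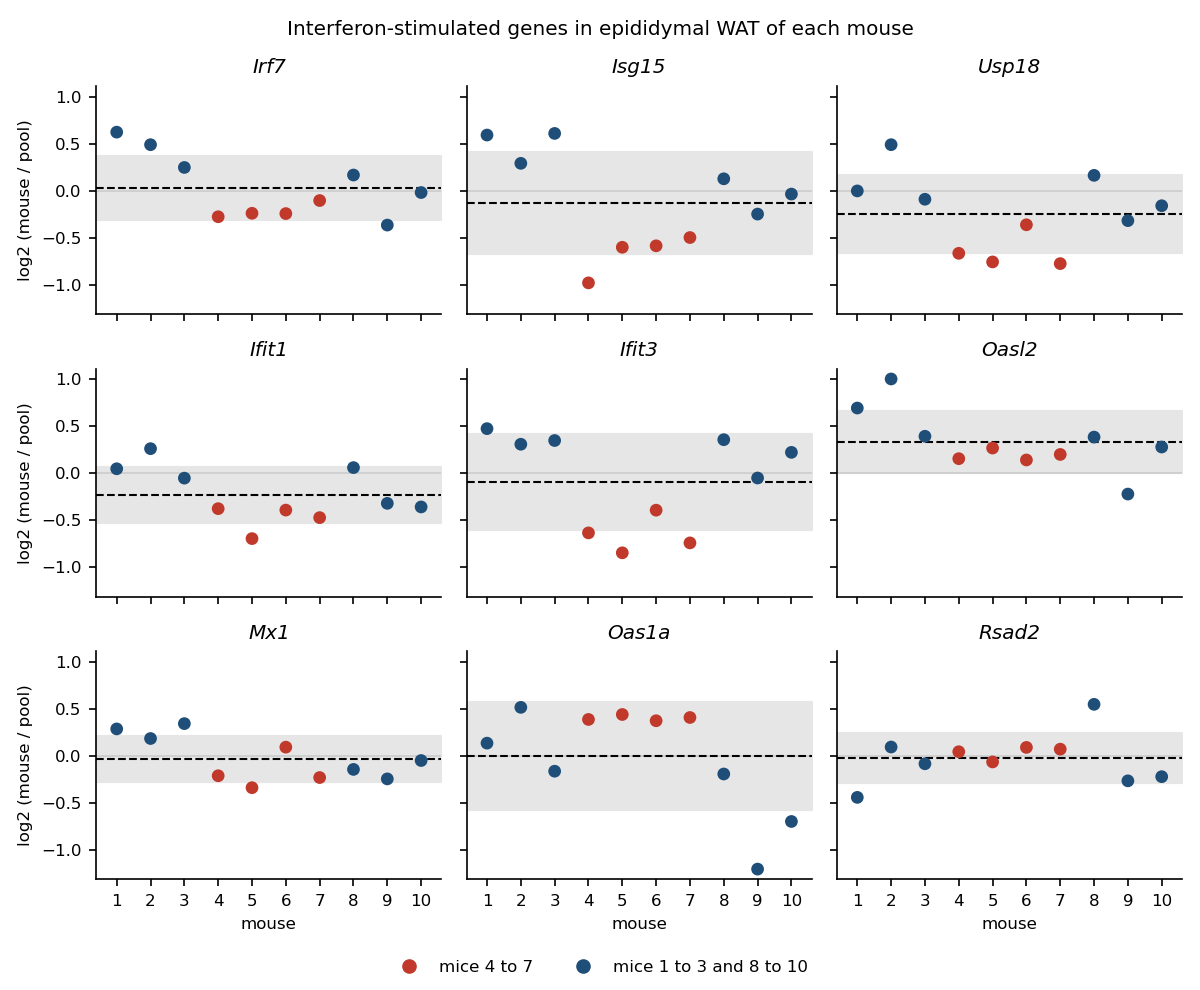
The log2 ratio of mouse over pool (y axis) of each of the 9 genes, by its brightest probe, in each of the 10 mice (x axis), with the mean as a dashed line and 1 SD on either side in grey. Mice 4 to 7, in red, are the 4 lowest for Isg15, Usp18, Ifit1 and Ifit3, and lie between 0.37 and 0.44 for Oas1a, where mice 9 and 10 are lowest.

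A test set the spread of Cy5, which holds 10 mice, against that of Cy3, which holds the same pool 10 times. Dye and kind of RNA coincided. Spread between mice can thus not be told apart from that of RNA preparation, labelling or dye. All 11 member probes varied more in Cy5 than in Cy3 (Pitman-Morgan test for paired variances, Benjamini-Hochberg adjusted over 25062 probes, adjusted p from 2.7e-06 for Ifit3 to 0.025 for the dimmer Isg15 probe). The same held for 59.8% of all probes tested. The median SD of the member probes was 0.34 in Cy5 and 0.07 in Cy3 on the log2 scale, and that of all probes tested was 0.20 and 0.08. Without normalization between arrays, 0 of the 11 passed, against 18.7% of all probes, and without mice 4 to 7, 4 passed, namely both Oas1a probes (adjusted p = 0.011 and 0.014), Oasl2 (0.017) and Rsad2 (0.050), against 14.2% of all probes. With slide means removed, 7 of the 11 passed, against 41.2% of all probes. The moderated F test of limma over the 5 slides, each of which was scanned by itself and held 2 mice, called 0 of 27737 probes, and 4.1% had an unadjusted p under 0.05, among them Oas1a, Irf7 and Oasl2 with 0.0093, 0.030 and 0.030.

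**Figure D2:**
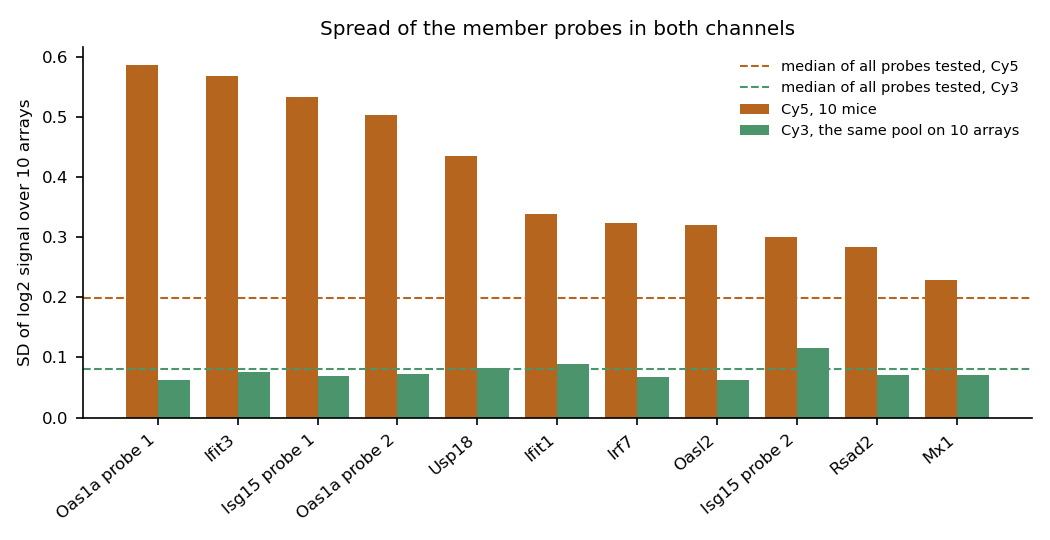
The SD of the log2 signal over the 10 arrays (y axis) of the 11 member probes in Cy5, which holds the mice, and in Cy3, which holds the pool, with the medians of all probes tested as dashed lines. In every member the Cy5 bar is higher than the Cy3 bar, and Mx1 is lowest in Cy5.

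The members were next set against Irf7 over the mice. Of the other 8 genes, 6 had a Pearson r over 0.7 with Irf7 (Oasl2, Isg15, Ifit1, Mx1, Usp18 and Ifit3), against 2.0% of 20178 expressed genes, while Oas1a and Rsad2 had r = 0.21 and -0.09. In the limma fit across all expressed probes, however, 0 of 27736 passed an adjusted p of 0.05, and all 7 probes of these 6 genes had an adjusted p of 0.52. At an unadjusted p under 0.05, 7 of the 10 other member probes had a positive slope, against 5.21% of all probes. A negative slope at that level was found for 0 member probes and for 2.73% of all probes. The covariation is therefore given as a description.

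Oasl2 lay closest to Irf7, with r = 0.89 (permutation test, two-sided, p = 0.00019) and Spearman's rho = 0.96 (permutation p = 5.0e-05). Without mice 1 and 2, which were farthest from the median of Irf7, r was 0.80. The brighter Isg15 probe had r = 0.86 (permutation p = 0.0017) and rho = 0.83 (permutation p = 0.0046), and 0.83 without those 2 mice. Ifit1 had r = 0.84 (permutation p = 0.0029) and rho = 0.65 (permutation p = 0.049). Mx1, Usp18 and Ifit3 had r of 0.77, 0.76 and 0.75, with permutation p from 0.011 to 0.014, and rho of 0.71 to 0.73, with permutation p from 0.020 to 0.027. Without the same 2 mice the r of these 4 genes fell to between 0.62 and 0.73. Among the 7 genes that include Irf7, the 21 pairs had r from 0.51 to 0.93, with Ifit1 and Usp18 the closest pair, and from 0.34 to 0.95 without mice 4 to 7. Without mice 4 to 7 the r with Irf7 was 0.93 for Oasl2, 0.85 for Isg15, 0.82 for Ifit1, 0.81 for Mx1 and 0.91 for Ifit3.

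Without mice 4 to 7, Oas1a joined this pattern. Its brighter probe had r = 0.94 with Irf7 over the remaining 6 mice, and r = 0.98 with Oasl2. In these 6 mice Irf7 and Oas1a were both lowest in mouse 9 and next lowest in mouse 10, and these 2 mice shared a slide. The slope of Oas1a on Irf7 was 0.35 ± 0.51 (SE) with all 10 mice and 1.62 ± 0.23 with 6, where limma's adjusted p was 0.26. With the first component as a second covariate the slope was 1.19 ± 0.17 (limma, adjusted p = 0.088). The sign of the slope depended on the setting. It was -0.67 ± 0.53 with slide as a block, and -0.18 ± 0.40 when only mouse 9 was left out. With only mice 1 and 2 left out, the r with Irf7 was -0.04 for the brighter Oas1a probe and 0.41 for Rsad2. In the 6 mice other than 4 to 7, Rsad2 had r = 0.02 with Irf7. The share of all expressed genes with r over 0.7 was 10.5% in these 6 mice, and Usp18 fell below this bound, at 0.69. Adipocyte and macrophage markers differed between the 4 mice and the other 6 as given above, and their part in these relations was not tested.

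Slides shared by 2 mice each also bear on the pattern. Between the 2 mice of a slide, the difference had the same sign as that of Irf7 on 4 of 5 slides for Isg15, Ifit3, Oasl2 and Mx1, on 3 for Usp18 and on 2 for Ifit1, Oas1a and Rsad2. With slide as a block, 4 of the 10 member probes (both Isg15 probes, Ifit3 and Mx1) had a positive slope at an unadjusted p under 0.05, against 12.9% of all probes in that fit. Oasl2, Usp18 and Ifit1 did not, with unadjusted limma p of 0.10, 0.094 and 0.19.

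**Figure D3:**
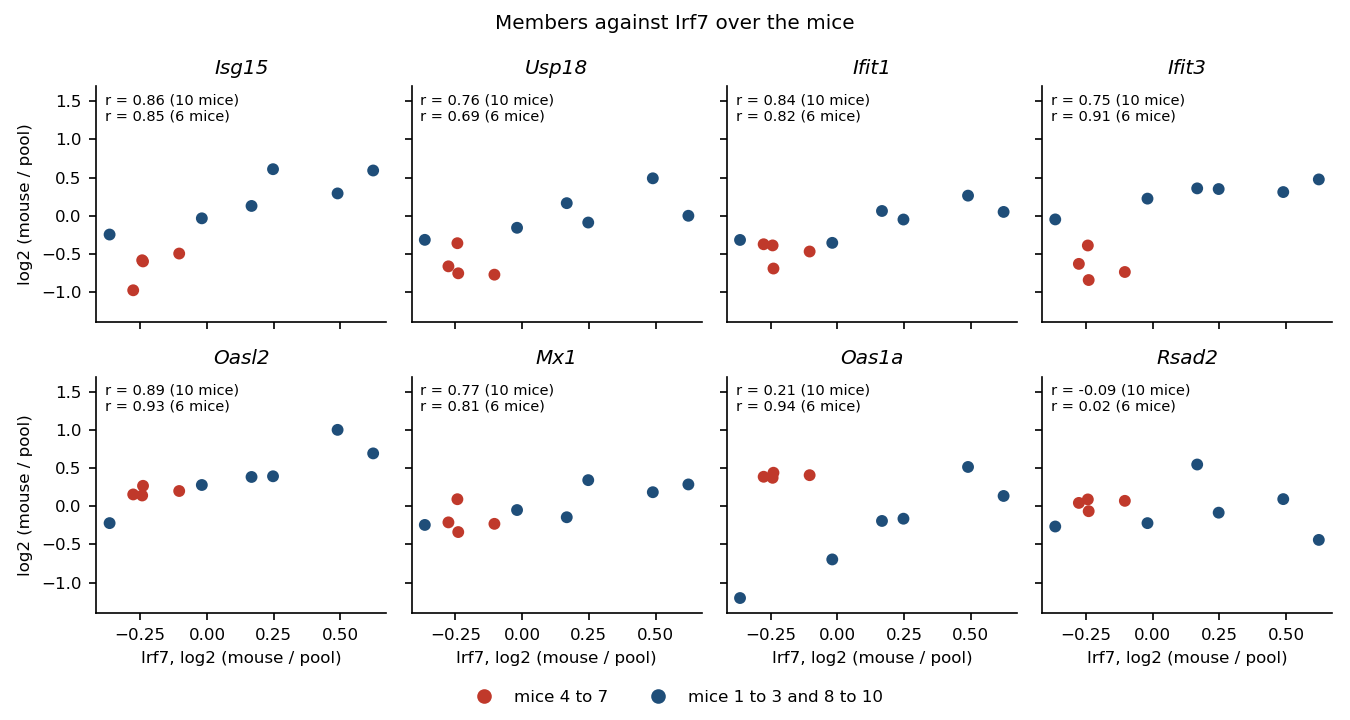
The log2 ratio of each of the other 8 genes (y axis) against that of Irf7 (x axis), 1 point per mouse, with Pearson's r over 10 mice and over the 6 mice other than 4 to 7. Oas1a has an r of 0.21 over 10 mice and 0.94 over 6, and Rsad2 has an r of -0.09 and 0.02.

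The pathway upstream of the members was described from lists of 114 genes on the array, of which 104 were expressed. The ligand probes gave little signal. Ifna4, Ifnb1, Ifne and Ifnk were well above background on 0 of 10 arrays, Ifna2 on 4, Ifng on 5, Ifna1 on 9 and Il28b on 10.

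All 6 receptor genes were expressed, and 4 of the 5 that could be tested varied more in Cy5 than in Cy3, against 62.3% of genes. Ifnar2 had r = 0.86 with Irf7 but a narrow range, from -0.19 to 0.20, and its spread did not pass (adjusted p = 0.064). Ifnar1, the other chain of the same receptor, ranged from -0.50 to 0.38 and was highest in mice 4 to 7, with r = -0.34. Ifngr2 and Il10rb, chains of the gamma and lambda receptors, were also highest in mice 4 to 7 (r = -0.42 and -0.45), whereas Ifngr1 and Il28ra were lowest there (r = 0.50 and 0.74). Over the 10 mice the r of the chains of each receptor thus had opposite signs. For the lambda receptor this rests on Il28ra, whose dim probe was well above background on only 6 of 10 arrays. The spread of Il28ra was not tested. Without mice 4 to 7 r was positive for both chains of the type I receptor (0.88 for Ifnar1 and 0.89 for Ifnar2) and of the lambda receptor (0.82 for Il10rb and 0.55 for Il28ra). It was 0.87 for Ifngr2 and -0.01 for Ifngr1.

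Of the 5 signal transducers described here, 4 varied more in Cy5 than in Cy3, against 62.3% of genes. Stat2, Jak2 and Irf9 had r of 0.78, 0.74 and 0.67 with Irf7, and 0.63, 0.59 and 0.60 without mice 4 to 7. Jak1 and Tyk2 had -0.48 and -0.60, and 0.09 and -0.34 without these mice. Stat2, which binds Irf9 in that complex, ranged from -0.07 to 0.40 and Irf9 from -0.09 to 0.28. The spread of Jak2 did not pass (adjusted p = 0.40).

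Of the 41 other type I interferon targets that were expressed, 35 varied more in Cy5 than in Cy3, against 62.3% of genes, and 16 had r over 0.7 with Irf7, against 2.0%. Their median r was 0.63, against 0.05 over all expressed probes. Ifi27l2a, well above background on 10 arrays, had no value in mouse 7 and is not among the 41. In the other mice Ifi27l2a ranged from -2.81 to 1.21. Lgals3bp, a secreted glycoprotein, ranged from -0.46 to 0.92 (r = 0.89). Oas2 ranged from -0.41 to 0.63 (r = 0.87), and Rtp4, a chaperone of membrane receptors, from -0.77 to 0.64 (r = 0.86). Tor3a and Pnpt1 had r of -0.39 and -0.53. Without mice 4 to 7 the r of Lgals3bp, Oas2 and Rtp4 was 0.88, 0.88 and 0.83, that of Pnpt1 was -0.26, and that of Tor3a turned to 0.76. The median r of the list was then 0.64, with 18 of 41 over 0.7, against 10.5% of genes.

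Of the expressed targets of interferon gamma, 20 genes in all, mice 4 to 7 were the 4 lowest for 17, against 23.0% of expressed genes. With Irf7 0 of the 20 had r over 0.7, against 2.0% of genes. Gbp2, Gbp3 and Gbp6, guanylate-binding proteins that attack intracellular pathogens, had r of 0.58, 0.60 and 0.68 over 10 mice and 0.06, 0.09 and 0.36 without mice 4 to 7. The mean of this list was -0.61 to -0.43 in mice 4 to 7 and was highest in mouse 10, at 0.59, where Irf7 was at -0.02.

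Of the 16 nucleic acid sensors and adaptors, 9 were highest in mice 4 to 7, against 18.4% of expressed genes, and 3 were lowest, against 23.0%. Zbp1, a sensor of nucleic acid in the Z form, and Ddx58 (RIG-I) had r of 0.84 and 0.72 with Irf7, and 0.79 and 0.72 without mice 4 to 7. Tbk1, the kinase that activates Irf3 and Irf7, and Aim2, the DNA sensor of an inflammasome, had r of -0.58 and -0.56, and -0.03 and 0.08 without these mice. Among the 7 other interferon regulatory factors, 0 had r over 0.7, against 2.0% of genes. Irf5 and Irf8, known from macrophages, were highest in mice 4 to 7 and reached r = 0.90 and 0.81 without them, against -0.37 and -0.16 with them. Irf1 and Irf3 were lowest there, with r of 0.45 and 0.49 over 10 mice and -0.31 and -0.18 over 6. Of the 6 feedback inhibitors, Socs3 had r = 0.67 over 10 mice and 0.68 over 6, and Socs1 0.40 and 0.62. Both values of Socs3 include mouse 1, where Irf7 was highest. Socs3 was at 0.52 in that mouse, far above the next at -0.002. The r of the phosphatases changed sign, from 0.40 to -0.81 for Ptpn11, from -0.22 to 0.86 for Ptpn6 and from -0.28 to 0.49 for Ptpn2.

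**Figure D4:**
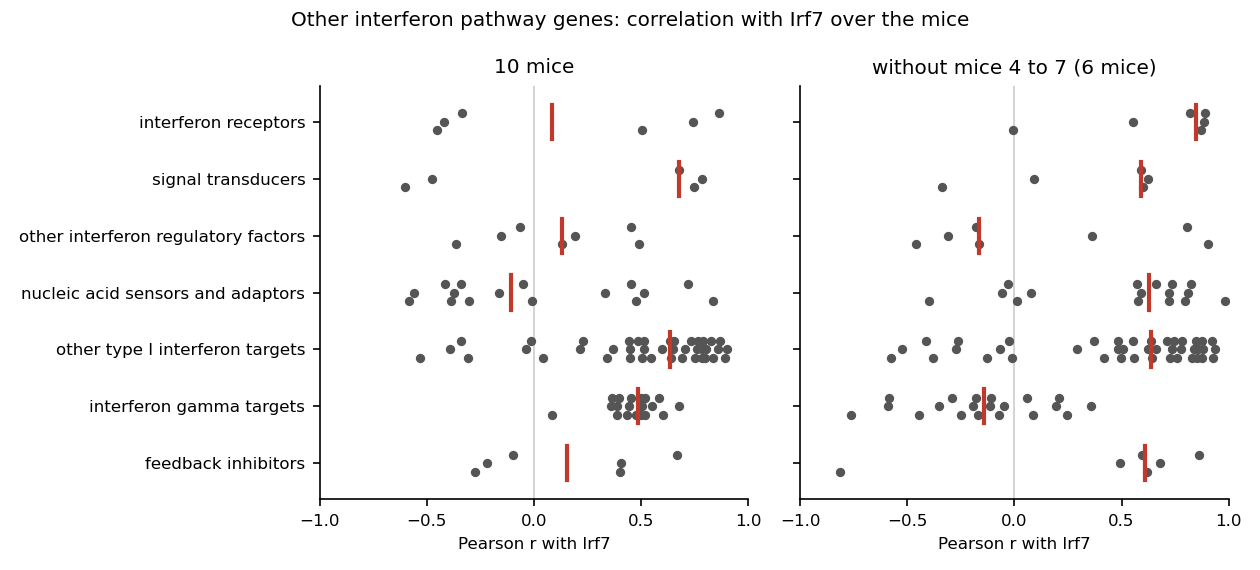
Pearson's r with Irf7 (x axis) of each expressed gene in 7 pathway lists (rows), over 10 mice on the left and without mice 4 to 7 on the right, with the median of each list in red. The median of the other type I targets is 0.63 and 0.64, and that of the interferon gamma targets is 0.49 and -0.14.

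The 10 genes outside the members and lists that were most like the mean profile of the 9 members, each centred and scaled over the 10 mice, had r of 0.90 to 0.96. They were Col16a1, H2-Bl, 2610301G19Rik, H2-T23, Gm4955, Nhej1, Tnrc6a, Phf7, Zfp961 and Aspg. These 10 were picked for the highest r among the expressed genes, so a high r follows from the choice and was not tested. Col16a1, a collagen chain, was closest (r = 0.96, range from -0.39 to 0.24). H2-Bl and H2-T23, which encode MHC class I molecules, had r of 0.95 and 0.92, and their probes may share RNA of related MHC genes.

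Markers of other cells stood as follows beside the members. Of the macrophage markers 6 of 8 were highest in mice 4 to 7, against 18.4% of expressed genes, and 1 was lowest, against 23.0%. The summed Cy5 signal of the macrophage markers ranged from 46041 to 143510. All 8 expressed adipocyte markers were lowest in mice 4 to 7 (121333 to 585416), against 23.0% of expressed genes. Of the plasmacytoid dendritic cell markers 4 of 6 were expressed, with Ccr9 on 2 arrays and Klk1 on 0, and their list mean ranged from -0.21 to 0.26. T cell, natural killer cell and B cell markers had list means of -0.42 to 0.56, -0.27 to 0.24 and -0.79 to 0.34. Mice 4 to 7 were the 4 lowest for the first and second of these lists, while for the B cell markers mouse 10, at -0.47, lay below mouse 6, at -0.35. Neutrophil markers ranged from -0.49 to 0.44, endothelial markers from -0.67 to 0.28 and mesothelial markers from -1.31 to 0.53. Sperm and epididymis markers, of which Crisp1, Defb20, Lcn5 and Lcn8 were well above background on 0 arrays, ranged from -2.79 to -1.02, with mouse 2 highest. The part of these cells in the members' values was not tested.

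**Figure D5:**
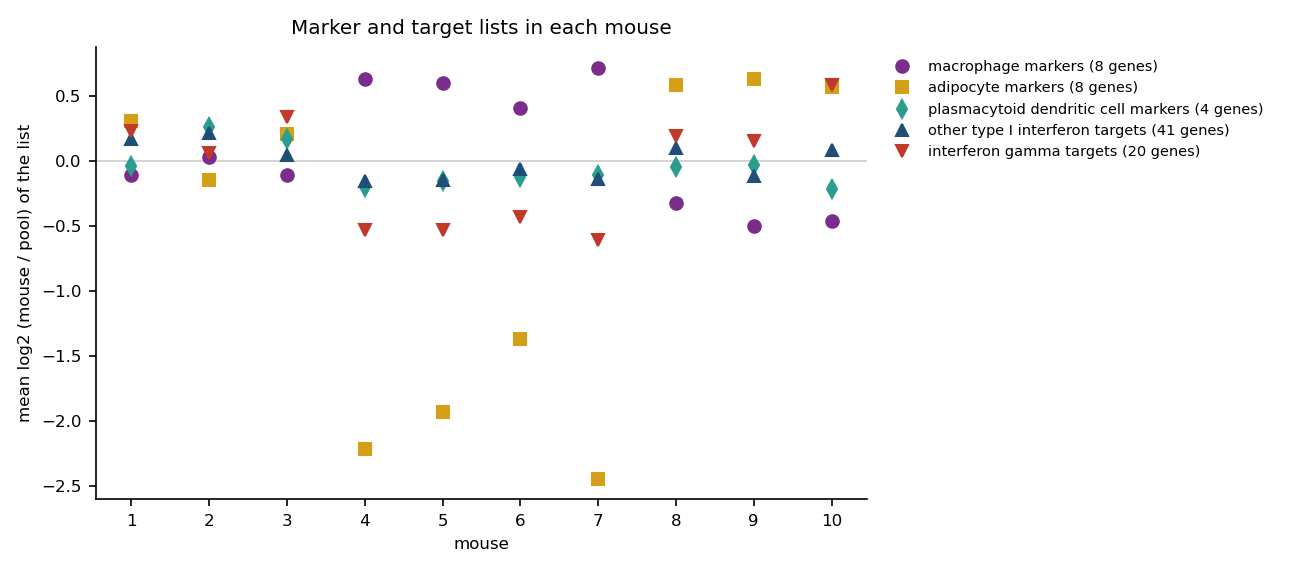
The mean log2 ratio of mouse over pool (y axis) of 5 lists of genes in each mouse (x axis). In mice 4 to 7 the adipocyte list lies between -2.44 and -1.36, the interferon gamma targets between -0.61 and -0.43 and the macrophage list between 0.41 and 0.72.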

How the data were processed

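The authors hybridised Cy5-labelled RNA of each mouse and a Cy3-labelled pool to 2-colour Agilent arrays and scanned them with Agilent Feature Extraction 10.7.3.1, per the file headers and the submitters' processing notes. The files deposited by the authors hold an intensity for each spot in each dye, with its background, and the log10 ratio of Cy5 over Cy3. A table of normalized log2 values of Cy5 was also deposited by the authors; its values correlated with the log2 Cy5 signal with r of 0.994 to 0.999, and its columns share a median of 8.519, and its normalization is not given in the sources used here. Gene names and mm9 coordinates are those of the array files.

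Mean intensities were background-corrected with normexp (offset 50) and loess-normalized within arrays in limma 3.58.1 (R 4.3.3), without control spots and outlier spots, and spots of a probe were averaged. For the test of spread, channels were made comparable with Aquantile. The regression used Irf7 as covariate, and slide was tested with limma's F test. The scripts were tested on simulated data. A gene is represented by its probe with the highest mean Cy5 signal. Named genes were all members, receptors and signal transducers, the ligands for detection, and of each other list the 3 genes with the smallest p and the 2 with the most negative slope on Irf7, with the 10 genes most like the members' mean. Another planned regression and a gene of the lists are not reported here. The members and lists were chosen with earlier results of these data known. Leaving out mice 4 to 7 was chosen after seeing the data. Replicates are mice. Alternatives were the scanner's ratio, the deposited values, median centring, no background subtraction, other filters, slide as a block, a component as covariate and leaving out each mouse.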

Additional observations from a re-analysis of the deposited data

Results flagged for a closer look

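Among the members and the other genes named above, 53 probes or genes in all, a mouse far from the other 9 was found for 2. Pnpt1, an RNA-degrading enzyme of the mitochondrion, was at -0.52 in mouse 3, with the next mouse at -0.08 and the highest at 0.40, so that the gap took 0.477 of the range. Socs3, an inhibitor of cytokine signalling, was at 0.52 in mouse 1, the mouse with the highest Irf7, with the next at 0.00 and the lowest at -0.43, a gap of 0.548 of the range. The critical value for 10 mice is 0.466, and chance flags about 5% of genes. None of the 11 member probes had such a mouse.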

How the results depend on the processing

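All 11 member probes passed the test of spread also without background subtraction, with no filter and with a filter that asks for all 10 arrays, and 8 passed with median centring, against 61.2%, 26.1%, 64.0% and 40.3% of all probes. Without normalization between arrays, 0 of 11 and 4694 of 25062 probes passed. With slide means removed 7 of 11 passed, and without mice 4 to 7 4 of 11 and 3555 of all. Leaving out 1 mouse at a time gave 10 to 11 member probes, with 10 when mouse 1 or mouse 4 was left out, and 13515 to 14412 probes in all, against 14976. The count on Irf7 was 0 in the settings run, apart from 1 with the scanner's ratio, and 0 to 0 with each mouse left out. The cause was not tested. The count between slides was 0 in each setting. The members' adjusted p on Irf7 was lowest, 0.084, without mouse 9. Median centring raised the median of the mean log2 ratios of all expressed probes by 0.32 and the mean of every member, by 0.23 (Mx1) to 0.56 (Oas1a). For Oasl2 (0.33 to 0.83), Rsad2 (-0.02 to 0.38) and Ifit1 (-0.23 to 0.08) this was more than the SD between mice. The means of Ifit3, Isg15, Usp18 and Mx1 also crossed 0, to 0.41, 0.40, 0.05 and 0.20, so that the side of 0 on which a mean lies depends on the centring. The scanner's ratio raised the SD of Irf7 from 0.34 to 0.54 and of Mx1 from 0.24 to 0.39. Without mice 4 to 7 the SD of Ifit3 was 0.18 and that of Isg15 0.34. For the other 92 alternative values, means moved by less than the SD between mice and SDs by no more than 1.5 times. No comparison paired between groups was possible because the mice form 1 group.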
